A study of Rattus norvegicus with 30 samples.

Results

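The opioid peptide precursor genes Penk (ENSRNOG00000008943) and Pdyn (ENSRNOG00000026036) and the tachykinin precursor gene Tac1 (ENSRNOG00000007374) were followed in 3 rat brain areas, the perilesional cortex, the thalamus and the hippocampus, 3 months after TBI (traumatic brain injury) or sham operation. They were picked out by Ensembl identifier, with no cutoff on a measured value, and all 3 were found among the 26404 identifiers of each table. TBI was induced in adult male Sprague-Dawley rats by lateral fluid percussion, a brief fluid pressure pulse applied to the intact dura through a craniectomy over the left parietal lobe (5 rats, numbered 6 to 10). The 5 sham-operated animals (rats 1 to 5) had the same anesthesia and surgery without the pulse. Each rat gave 1 library of polyadenylated RNA from each area, 30 libraries in all, and the hippocampal piece was dissected as the dentate gyrus with neighbouring CA3. The labels name no cell sort, so each value is an average over whole tissue pieces, and the labelled areas were not checked against cell type markers here.

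Penk, Pdyn and Tac1 encode precursor proteins that neurons cut into small signalling peptides and release alongside fast transmitters. Penk gives the enkephalins, which act mainly on delta and mu opioid receptors, and Pdyn gives the dynorphins, which act mainly on the kappa opioid receptor. Tac1 gives substance P and neurokinin A, which act on the tachykinin receptors. In the cortex these genes are known from subsets of GABAergic interneurons. In the hippocampus, Pdyn is known for its high level in dentate granule cells, whose mossy fibers carry dynorphin and enkephalin. Transcription of opioid precursor genes is known to respond to neuronal activity, in part through cyclic AMP response elements.

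The sequences upstream of the start sites are shown as a description, and their part in the cortical result was not tested. They are the RefSeq sequences of build GRCr8, matched by symbol for 2 of the 3 genes, and run 5′ to 3′ over the 250 bases before the annotated start. The Pdyn sequence is chr3:137366504-137366753 on the minus strand, and the Tac1 sequence is chr4:36645333-36645582 on the plus strand. Capitals mark the motifs found.
Pdyn: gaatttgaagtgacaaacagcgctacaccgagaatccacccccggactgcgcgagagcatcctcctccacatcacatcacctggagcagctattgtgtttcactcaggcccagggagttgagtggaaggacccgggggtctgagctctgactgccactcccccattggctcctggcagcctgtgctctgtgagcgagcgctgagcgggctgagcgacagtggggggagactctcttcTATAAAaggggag
Tac1: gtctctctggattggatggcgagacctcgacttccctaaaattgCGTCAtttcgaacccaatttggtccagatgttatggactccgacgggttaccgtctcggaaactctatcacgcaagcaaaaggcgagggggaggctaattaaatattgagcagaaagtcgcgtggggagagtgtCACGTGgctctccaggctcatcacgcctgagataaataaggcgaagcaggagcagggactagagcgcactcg
Both strands were searched for the cyclic AMP response element TGACGTCA, its core CGTCA, the E-box CACGTG, the TATA box TATAAA and the AP-1 site TGACTCA. The full response element contains the core on either strand. The Pdyn sequence held TATAAA from -13 to -8 relative to the start site, a motif present in 12.9% of 33469 such windows. The Tac1 sequence held CGTCA from -206 to -202 and CACGTG from -72 to -67, which occur in 18.2% and 5.59% of the windows. TGACGTCA (1.59% of windows) and TGACTCA (4.05%) were in neither. These matches describe letters in a window and were not tested for binding. Sequence beyond the 250 bases was not searched, nor was any of Penk, so elements that lie elsewhere would be missed.

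Libraries held between 21992859 and 31799879 counts on genes, and values are given as CPM, the count of a gene scaled to a library of fixed size, after trimmed-mean (TMM) scaling of the libraries of an area. Some libraries stood apart. The 10 most counted genes took 44.1% and 40.9% of the counts in the hippocampus of sham-operated rats 4 and 5, against 9.95% to 16.4% in the other hippocampal libraries. In the thalamus of sham-operated rat 1, 14 of 15238 genes lay at least 4-fold above every other thalamic library, where the other thalamic libraries had 0 to 2 such genes. By the same measure, 15 of 15145 genes stood apart in the hippocampus of sham rat 5, Pdyn not among them, and 0 in each other hippocampal library. The hippocampal libraries of sham rat 3 and TBI rat 8 sat poorly with their labels. At 21 genes, all higher in TBI rat 8, these 2 rats differed at least 4-fold in both cortex and thalamus, and all 21 had the opposite direction in the hippocampus, although 0 did so by 4-fold there and such genes may move together. In the 15 sham and TBI pairs of the other rats with such genes, at most 16.7% did. The hippocampal values below keep the labels, and the main ones are also given without these libraries.

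In the perilesional cortex, Penk and Pdyn were downregulated after TBI, each by close to the same proportion. Tac1 did not pass the test, and its estimate was on the side of an increase.
Penk was measured at 34.1, 30.8, 30.4, 39.5 and 36.4 CPM in sham-operated rats 1 to 5 and at 27.5, 17.4, 27.5, 20.7 and 28.9 CPM in TBI rats 6 to 10. All TBI libraries lay below all sham libraries, with TBI rats 7 and 9 the lowest. The sham mean was 34.3 ± 3.84 CPM and the TBI mean 24.4 ± 5.07 CPM (SD, n = 5 each). Penk fell to 0.713 of its sham level, which is -0.49 on the log2 scale (standard error 0.13, 95% interval -0.77 to -0.21, adjusted p = 0.0137, edgeR's quasi-likelihood test with Benjamini-Hochberg adjustment over 17185 genes).
Pdyn was measured at 28.3, 24.0, 22.7, 30.9 and 23.7 CPM in the sham-operated rats and at 18.2, 15.1, 17.03, 19.96 and 21.6 CPM in the TBI rats. Again the groups did not overlap, and TBI rat 7 was the lowest of the 10 libraries. The sham mean was 25.9 ± 3.49 CPM and the TBI mean 18.4 ± 2.53 CPM (SD, n = 5 each). Pdyn fell to 0.71 of its sham level, also -0.49 on the log2 scale (standard error 0.11, 95% interval -0.73 to -0.25, edgeR adjusted p = 0.00509).
Of all genes tested in the cortex, 25.8% passed the test, 14.2% higher and 11.6% lower after TBI. Groups did not overlap at 18.1% of the genes, of which those with every TBI library above made up 10.2% and those with every TBI library below 7.91% of all genes, so that by TMM scaling the outcome of Penk and Pdyn was not rare in this area. The fold changes of Penk and Pdyn were lower than those of all but 4.86% and 4.73% of the tested genes.
Tac1 was measured at 5.50, 4.25, 3.77, 5.20 and 5.08 CPM in the sham-operated rats and at 6.63, 4.91, 6.72, 4.004 and 6.93 CPM after TBI. TBI rats 6, 8 and 10 lay above all sham libraries, while rats 7 and 9, which had the least Penk, lay within the sham range. Its log2 fold change was 0.30 (standard error 0.16, 95% interval -0.05 to 0.65, edgeR adjusted p = 0.197), an interval that holds both no change and an increase to 1.57 times the sham level.

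**Figure D1:**
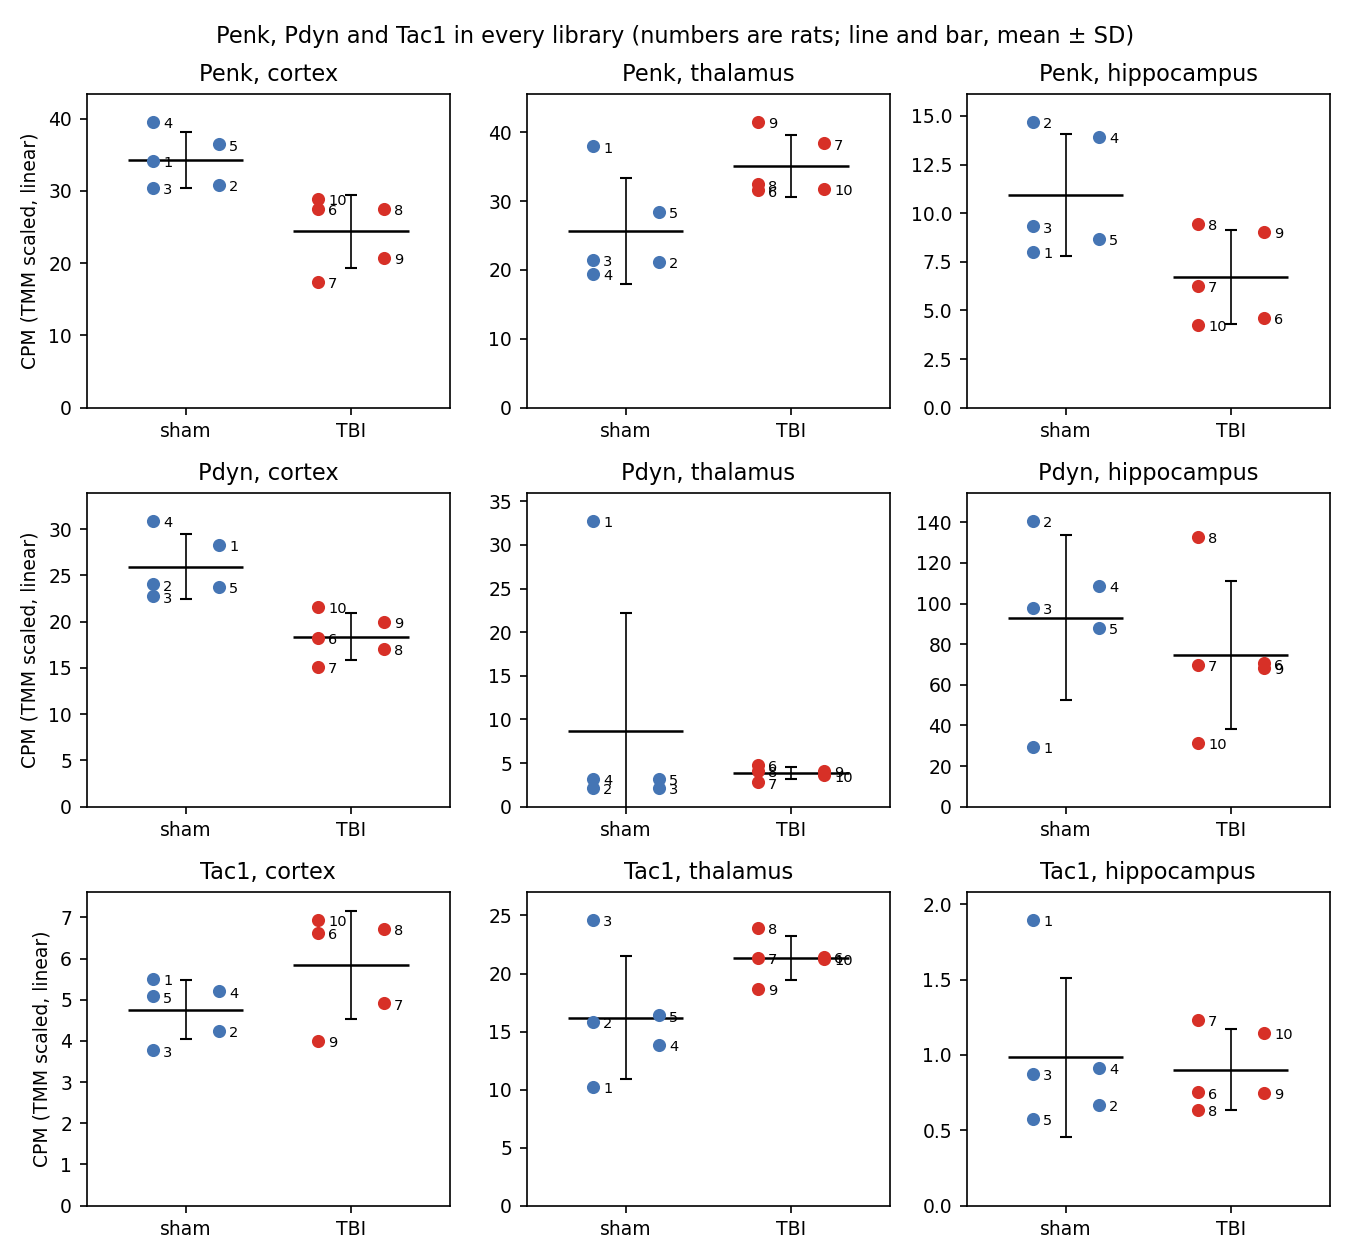
CPM of each gene (rows, linear axes from 0) in each brain area (columns), 1 point a library with its rat number, blue for sham and red for TBI, with the group mean ± SD (the lower bar of thalamic sham Pdyn runs past 0 and is cut by the axis). In the cortex all TBI points of Penk and Pdyn lie below all sham points, and thalamic Pdyn of sham rat 1 (32.7 CPM) stands far above the other 9 libraries.

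The cortical result depended on how libraries were scaled. With the total count as the only scaling, an alternative added after the data were seen, the log2 fold changes were -0.26 for Penk (edgeR adjusted p = 0.269), -0.26 for Pdyn (edgeR adjusted p = 0.218) and 0.53 for Tac1 (edgeR adjusted p = 0.0453), while the median of all cortical genes moved from -0.01 to 0.21 and the genes called changed from 2437 higher and 1999 lower to 3963 higher and 250 lower. The 10 most counted genes took 20.3% to 29.6% of the sham and 14.1% to 23.8% of the TBI cortical libraries, and TMM factors were 0.797 to 1.03 in sham and 0.950 to 1.23 after TBI. The part of this difference in the cortical result was not tested beyond the change of scaling. A ratio of 2 members within a library does not depend on scaling, although its absolute value carries the difference in transcript length. The log2 ratio of Penk to Tac1 counts was 2.63, 2.86, 3.01, 2.93 and 2.84 in the sham libraries and 2.05, 1.82, 2.03, 2.37 and 2.06 after TBI. All TBI values were below all sham values. The log2 ratio of Pdyn to Tac1 had a mean of 2.45 ± 0.15 (SD, n = 5) in sham and 1.67 ± 0.38 (SD, n = 5) after TBI, with 1 TBI library, rat 9 at 2.32, inside the sham range of 2.22 to 2.59. The log2 ratio of Penk to Pdyn was 0.40 ± 0.13 (SD, n = 5) in sham and 0.39 ± 0.26 (SD, n = 5) after TBI. Thus Penk and Pdyn were lower relative to Tac1, and not relative to each other. Of all genes tested in the cortex, 79.4% had a lower fold change than Tac1, so a fall relative to Tac1 was common there. In whole tissue, fewer cells that make a transcript and less transcript per cell cannot be told apart.
When single rats were left out, the cortical log2 fold changes stayed between -0.56 and -0.39 for Penk (edgeR adjusted p between 0.00816 and 0.0453) and between -0.56 and -0.41 for Pdyn (edgeR adjusted p between 0.00311 and 0.0201). When all areas shared 1 fit, and thereby 1 estimate of the spread, Penk (edgeR adjusted p = 0.0711) and Pdyn (edgeR adjusted p = 0.530) no longer passed in the cortex at log2 fold changes of -0.52 for both.

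**Figure D2:**
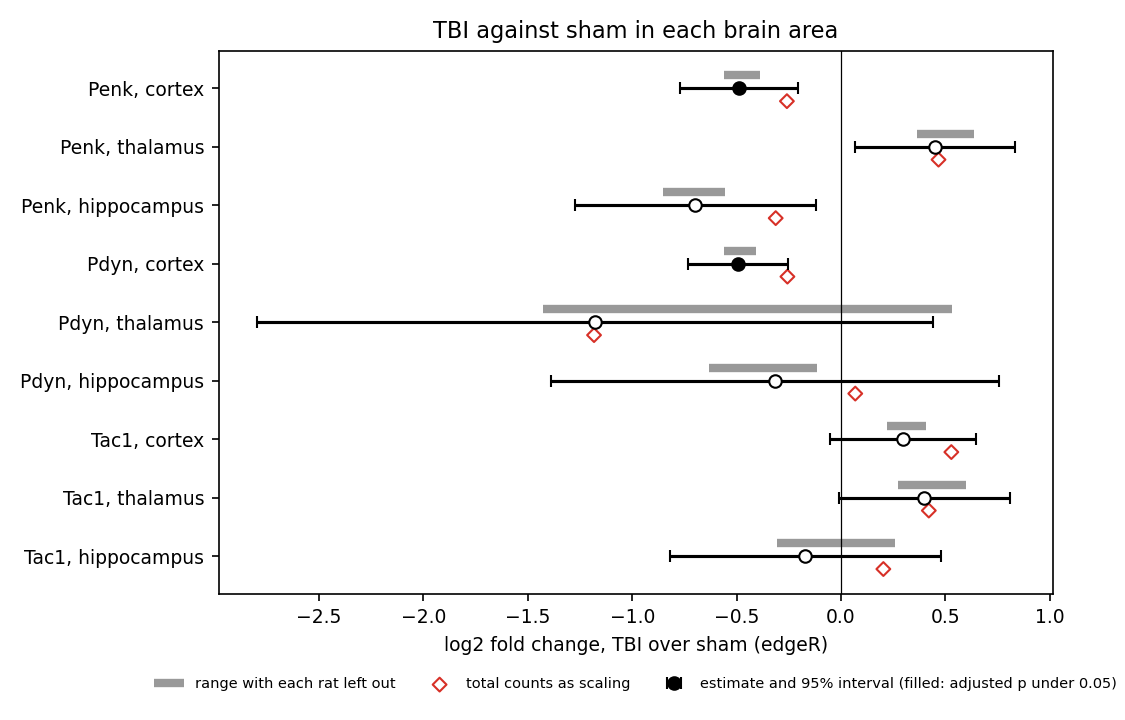
Log2 fold change of TBI over sham for each gene and area: circles with bars are edgeR estimates with 95% intervals (filled where the adjusted p was under 0.05), gray bars the range with each rat left out, and diamonds the estimate with total counts as scaling. Only Penk and Pdyn in the cortex are filled, and the thalamic Pdyn bar runs from -1.43 to 0.53.

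In the thalamus, Penk was higher in each TBI library than the sham mean, the opposite direction to the cortex, but the difference did not pass the test with all rats. Tac1 had an estimate of similar size in the same direction that did not pass either, and Pdyn was set by 1 sham library.
Penk was measured at 37.95, 21.2, 21.5, 19.4 and 28.4 CPM in the 5 sham-operated rats and at 31.6, 38.4, 32.4, 41.5 and 31.8 CPM in the TBI rats. Sham rat 1 lay within the TBI range, and the other 4 sham libraries lay below all TBI libraries. The log2 fold change of Penk was 0.45 (standard error 0.18, 95% interval 0.07 to 0.83, edgeR adjusted p = 0.146 over 16605 genes), and the two-sided exact permutation test of log2 CPM gave p = 0.0556. Without rat 1, the library that stood apart, it was 0.64 (edgeR adjusted p = 0.0371), in a fit in which 4.21% of all genes passed. DESeq2 gave 0.45 with all rats (adjusted p = 0.118). Without rat 1, a fit added after the data were seen, DESeq2 gave 0.63 (adjusted p = 0.00286), and 7.75% of all genes passed. With any other rat left out the edgeR call was not made, with an adjusted p of at most 0.294.
Pdyn was measured at 32.7 CPM in sham rat 1, from 1011 counts, and at 2.16, 2.17, 3.18 and 3.22 CPM in sham rats 2 to 5, from 51 to 82 counts. After TBI it was measured at 4.75, 2.78, 4.07, 4.14 and 3.598 CPM in rats 6 to 10. Rat 1 had 6.89 times the Pdyn of the next library, and Pdyn was 1 of the 14 genes that stood at least 4-fold above all other libraries there. Pdyn had a log2 fold change of -1.18 with all rats (standard error 0.74, edgeR adjusted p = 0.365) and 0.53 without rat 1 (edgeR adjusted p = 0.177), so that its direction rested on this library. Of the 5 TBI libraries, 4 then lay above the 4 remaining sham libraries, which had 2.68 ± 0.60 CPM (SD, n = 4).
Tac1 was measured at 10.3, 15.9, 24.6, 13.8 and 16.4 CPM in the sham-operated rats and at 21.5, 21.4, 23.9, 18.6 and 21.2 CPM after TBI. Sham rat 3 was the highest of the 10 libraries, and the other 4 sham libraries lay below all TBI libraries. The rat with the most Pdyn, rat 1, had the least Tac1. The log2 fold change of Tac1 was 0.40 (standard error 0.19, 95% interval -0.01 to 0.81, edgeR adjusted p = 0.227), and it was 0.27 without rat 1 (edgeR adjusted p = 0.385) and 0.60 without rat 3 (edgeR adjusted p = 0.0744).
For comparison, 5.62% of all thalamic genes passed at the same threshold, 3.77% higher and 1.85% lower after TBI. Groups did not overlap at 5.4% of the genes, with TBI above at 2.75% and below at 2.65%.

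**Figure D3:**
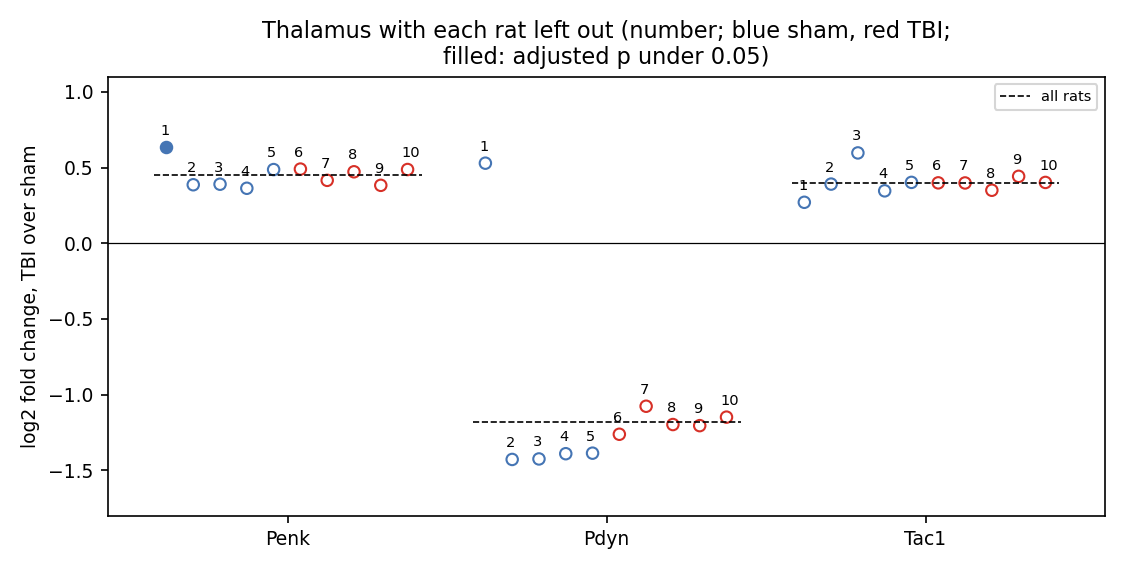
Log2 fold change of TBI over sham in the thalamus with each rat left out in turn (1 circle a fit, labelled by the rat left out, blue for sham and red for TBI, filled where the edgeR adjusted p was under 0.05), and with all rats (dashed). Leaving out rat 1 takes Pdyn from -1.18 to 0.53 and makes the only filled circle, Penk at 0.64.

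In the hippocampus, no member passed the test. Penk had the largest estimate of the 3, on the side of a decrease, and Pdyn varied over 4-fold between rats of the same group.
Penk was measured at 7.99, 14.7, 9.32, 13.9 and 8.66 CPM in sham-operated rats 1 to 5 and at 4.62, 6.27, 9.43, 9.02 and 4.27 CPM in the TBI libraries. TBI rats 6, 7 and 10 lay below all sham libraries, and rats 8 and 9 lay among them. The log2 fold change of Penk was -0.70 (standard error 0.26, 95% interval -1.28 to -0.12, edgeR adjusted p = 0.514 over 16963 genes), and the two-sided exact permutation test gave p = 0.0714. It was -0.91 without rats 3 and 8 (edgeR adjusted p = 0.194), -0.66 without sham rats 4 and 5 (edgeR adjusted p = 0.850) and -0.77 in the libraries of flow cell FC120, sham rats 2 to 4 and TBI rats 6 to 9 (edgeR adjusted p = 0.890, added after the data were seen). The other named flow cell held 1 sham and 1 TBI library. With the total count as scaling it was -0.31 (edgeR adjusted p = 0.332), while the median of all hippocampal genes moved from -0.01 to 0.38.
Pdyn was measured at 29.5, 141, 98.0, 109 and 88.0 CPM in the sham-operated rats and at 70.6, 69.7, 133, 68.2 and 31.4 CPM after TBI. Sham rat 1 and TBI rat 10 were the lowest, and sham rat 2 and TBI rat 8 the highest, and the highest over the lowest was 4.77 in sham and 4.23 after TBI. These values rest on 919 to 4392 counts, and counting error was at most 3.30% of a value. The log2 fold change of Pdyn was -0.32 (standard error 0.47, 95% interval -1.39 to 0.75, edgeR adjusted p = 0.889), an interval from 0.381 to 1.69 times the sham level. Without rats 3 and 8 it was -0.61 (edgeR adjusted p = 0.708), without rat 2 or rat 10 it was -0.12, and with the total count as scaling it turned to 0.068 (edgeR adjusted p = 0.808). The biological coefficient of variation of Pdyn was 0.499 here, above that of 99.2% of genes, against 0.134 in the cortex, where 46.9% of genes varied no more.
Tac1 had between 9 and 59 counts per hippocampal library. It was measured at 1.89, 0.669, 0.872, 0.915 and 0.577 CPM in the sham-operated rats and at 0.751, 1.23, 0.635, 0.747 and 1.15 CPM after TBI. The rats with the least Pdyn, rats 1 and 10, were among the 3 with the most Tac1, together with rat 7. Tac1 had a log2 fold change of -0.17 (standard error 0.31, 95% interval -0.82 to 0.48, edgeR adjusted p = 0.909), which was 0.26 without sham rat 1 (edgeR adjusted p = 0.826) and -0.13 without rats 3 and 8 (edgeR adjusted p = 0.920). Without sham rats 4 and 5 it was -0.34 for Tac1 (edgeR adjusted p = 0.894) and -0.26 for Pdyn (edgeR adjusted p = 0.956). Counting error was 13.0% to 33.3% of a Tac1 value, and the biological coefficient of variation, the spread between rats beyond counting, was 0.289.
Across the hippocampus, 0% of genes passed in edgeR, and groups did not overlap at 0.984% of the genes (0.519% with TBI above). There were 1432 genes with an unadjusted p under 0.05 in edgeR, limma called 0 genes, and DESeq2 called 5 genes higher and 41 lower, or 0 and 1 without sham rats 4 and 5. Without rats 3 and 8, edgeR called 246 genes higher and 17 lower (1.55%). These rats were singled out in the same data by genes that ran against their labels, so leaving them out could itself add calls. With the total count as scaling, edgeR called 180 higher and 45 lower (1.33%). The count of 0 thus depends on the libraries and the scaling.

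Penk and Pdyn varied together between the libraries of the cortex and of the hippocampus, as the plot of one against the other shows. In the thalamus this rested on sham rat 1 once the group means were removed. Likeness was measured as the Pearson correlation of log2 CPM over the 10 libraries of an area, averaged over the 3 areas, among the 14376 genes at a mean of at least 1 CPM in every area. It is given as a description, since libraries of an area share their scaling and, in the cortex, the injury. For Penk, ENSRNOG00000016623 was the most alike (mean correlation 0.70) and Pdyn was next (0.67), with 0.84 in the cortex, 0.50 in the thalamus and 0.67 in the hippocampus. For Pdyn, ENSRNOG00000036661 was the most alike (0.81), and 25 genes came before Penk. The thalamic part of these ranks (0.89 for ENSRNOG00000036661) includes sham rat 1, and the ranks were not computed without it. With the mean of each group removed, the correlation of Penk with Pdyn was 0.59 in the cortex, 0.76 in the thalamus and 0.73 in the hippocampus, over 10 libraries each. Over the 8 hippocampal libraries without rats 3 and 8, the correlation of Penk with Pdyn was 0.68, or 0.69 with the group means removed. Over the 9 thalamic libraries without rat 1 it was 0.61 with the group means kept and 0.01 with the group means removed.
Tac1 went the other way from Pdyn in the hippocampus (-0.78) and in the thalamus (-0.66), and with the group means removed the values were -0.80 and -0.75. Without rat 1 the hippocampal value was -0.61, or -0.55 with the group means removed, and the thalamic value was 0.15, or -0.41 with the group means removed. The hippocampal value was -0.76 without rats 3 and 8. In the cortex the correlation of Tac1 with Pdyn was -0.20, and 0.36 with the group means removed. Tac1 and Penk had 0.13 in the cortex, and 0.82 once the group means were removed. For the same pair, the values were 0.03 and, with group means removed, -0.61 in the thalamus, or -0.13 without rat 1. In the hippocampus they were -0.31 and -0.45.

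**Figure D4:**
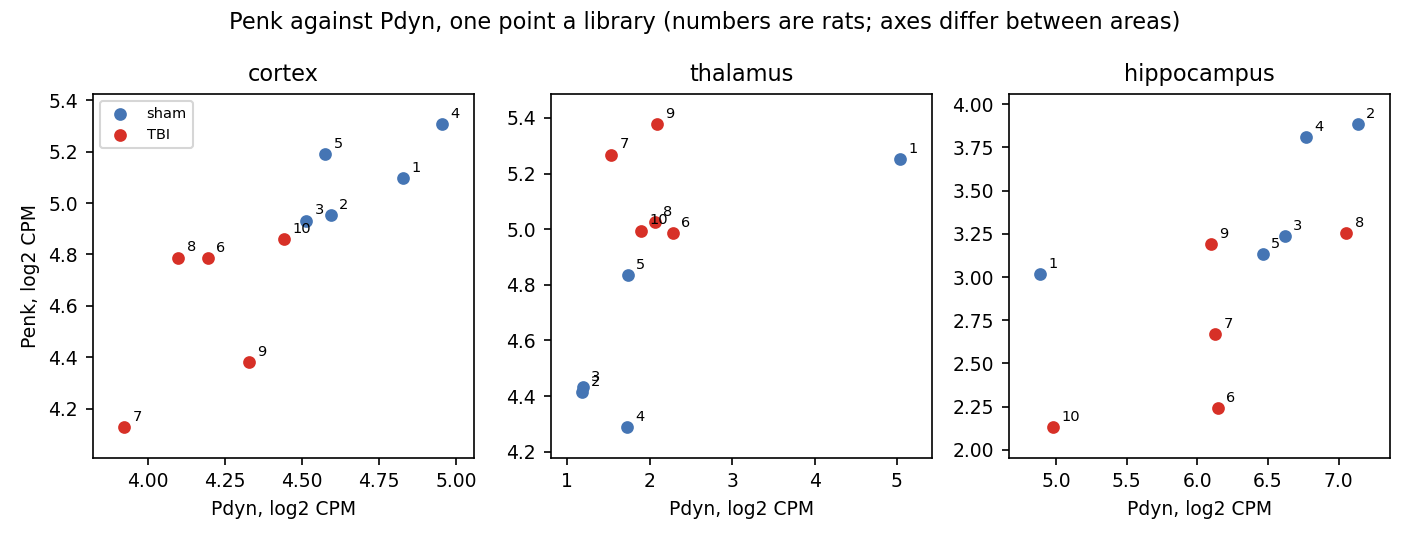
Penk against Pdyn in log2 CPM, 1 point a library with its rat number, for the cortex, thalamus and hippocampus (blue sham, red TBI; the axes differ between areas). In the cortex the sham libraries fill the upper right and the TBI libraries the lower left, and in the thalamus sham rat 1 lies alone on the right.

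To ask whether areas differed in their response to TBI, the log2 fold changes of each pair of areas were compared by an interaction term over all 30 libraries. No member passed it, where 0.582% of 18040 genes did between cortex and thalamus, 0.449% between cortex and hippocampus and 0.322% between thalamus and hippocampus.
For Penk, the cortical log2 fold change minus the thalamic one was -0.94 (standard error 0.29, 95% interval -1.53 to -0.36, edgeR adjusted p = 0.141), and the thalamic minus the hippocampal one was 1.12 (standard error 0.30, 95% interval 0.51 to 1.72, edgeR adjusted p = 0.0792). Without the thalamic library of rat 1, these differences were -1.12 (edgeR adjusted p = 0.0548) and 1.29 (edgeR adjusted p = 0.0475), the second past the threshold, as were 0.259% of all genes in that fit. With the rat as a block in that same fit, they were -1.16 (edgeR adjusted p = 0.0740) and 1.36 (edgeR adjusted p = 0.0508). Between cortex and hippocampus the Penk difference was 0.17 (95% interval -0.43 to 0.78, edgeR adjusted p = 0.853). Without the hippocampal libraries of rats 3 and 8, the Penk difference was 0.38 between cortex and hippocampus (edgeR adjusted p = 0.759) and 1.33 between thalamus and hippocampus (edgeR adjusted p = 0.0846).
For Pdyn and Tac1, the adjusted p in edgeR was at least 0.486 for every pair of areas, and the intervals were wide, from -2.52 to 2.33 over the pairs for Pdyn and from -0.72 to 1.26 for Tac1. The fit shares 1 estimate of the spread. The biological coefficient of variation of Pdyn was 0.134 in the cortex, 0.756 in the thalamus and 0.499 in the hippocampus. Cortical Pdyn itself did not pass in this fit (edgeR adjusted p = 0.530), so it cannot decide whether areas differ for Pdyn.

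In the sham-operated animals each gene had its own order over the areas, here with all 30 libraries scaled together. Penk was highest in the cortex, Pdyn in the hippocampus and Tac1 in the thalamus. Levels of different genes are not compared, since the values are not per transcript length.
Penk had 34.96 ± 4.07 CPM (SD, n = 5) in the sham cortex, 22.9 ± 6.70 CPM (SD, n = 5) in the thalamus and 12.2 ± 3.51 CPM (SD, n = 5) in the hippocampus. The cortex was 1.53-fold above the thalamus (edgeR adjusted p = 0.00871) and the thalamus 1.88-fold above the hippocampus (edgeR adjusted p = 0.000337). Neighbouring ranges overlapped in the first step only, where thalamic rat 1 reached 33.2 CPM and the lowest cortical library had 30.8 CPM. After TBI the order of the means was exchanged at the top, with 30.8 ± 4.03 CPM (SD, n = 5) in the thalamus and 24.4 ± 4.97 CPM (SD, n = 5) in the cortex. Levels of the areas after TBI were not tested against each other.
Pdyn had 104 ± 45.3 CPM (SD, n = 5) in the sham hippocampus, 26.5 ± 3.77 CPM (SD, n = 5) in the cortex and 7.65 ± 11.7 CPM (SD, n = 5) in the thalamus. The hippocampus was 3.92-fold above the cortex (edgeR adjusted p = 0.00466) and, as a log2 difference, the cortex was 1.76 above the thalamus (edgeR adjusted p = 0.00699), or 3.45 without the thalamic library of rat 1 (edgeR adjusted p = 8.62e-09). Hippocampal rat 1, at 32.9 CPM, was close to the highest cortical library at 31.7 CPM, and its thalamic library had 28.6 CPM.
Tac1 had 14.4 ± 4.65 CPM (SD, n = 5) in the sham thalamus, 4.86 ± 0.76 CPM (SD, n = 5) in the cortex and 1.099 ± 0.59 CPM (SD, n = 5) in the hippocampus. The thalamus was 2.97-fold above the cortex (edgeR adjusted p = 2.11e-07) and the cortex 4.22-fold above the hippocampus (edgeR adjusted p = 1.16e-07), with no overlap of the sham libraries between neighbouring areas. Without the hippocampal libraries of rats 3 and 8, the log2 difference of the sham cortex from the hippocampus was 1.47 for Penk, -1.95 for Pdyn and 2.01 for Tac1, each past the threshold in edgeR. Differences between areas of this kind were common, since 70.9% of genes passed between sham cortex and thalamus, 45.2% between cortex and hippocampus and 68.1% between thalamus and hippocampus. According to the methods, the thalamic libraries were read on another instrument with longer reads, although the labels name 1 instrument for all areas, and effects of sequencing on thalamic levels cannot be told apart from those of the area.

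**Figure D5:**
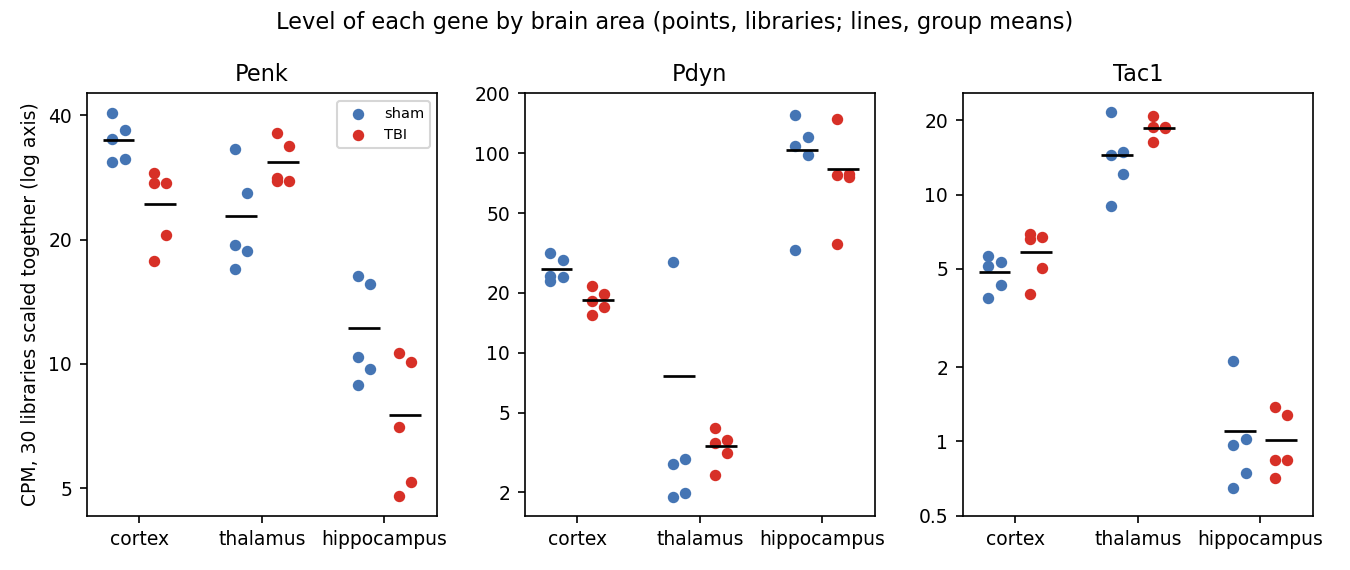
CPM of each gene on a log axis with all 30 libraries scaled together, by brain area, 1 point a library (blue sham, red TBI) with lines at group means. Penk is highest in the sham cortex (mean 34.96 CPM), Pdyn in the hippocampus (104 CPM) and Tac1 in the thalamus (14.4 CPM).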

How the data were processed

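mRNA was sequenced from 3 brain areas of 10 rats, and groups were taken from the sample titles. The authors aligned reads to Rnor_5.0 with STAR, and the deposited values are raw read counts by Ensembl gene. The counting tool and use of strand are not given in the sources used here, so reads of overlapping or antisense genes cannot be separated. All columns were matched to samples by name, with 0 left unused. The area of each rat was 1 library, so p-values measure the spread between rats.

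Counts were analysed with R 4.3.3 and edgeR 4.0.16. In each area alone, genes were kept by filterByExpr (minimum count 10, minimum total 15), scaled by TMM and tested by quasi-likelihood (robust option), with p-values adjusted over all genes after Benjamini and Hochberg and a threshold of 0.05. The study used DESeq2, run here as an alternative (version 1.42.0), as were limma 3.58.1 (voom), RLE scaling, no filter, 1 fit for all areas, each rat left out, libraries in doubt left out, and exact permutation tests over 252 arrangements. log2 CPM used a prior count of 3. Interactions and differences between areas came from 1 edgeR fit over 6 groups. Intervals are 95% intervals from the standard error of the edgeR fit.

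The rat links the areas, since the same animals gave all 3. The mean correlation of deviations from group means between areas of a rat was 0.05 for cortex and thalamus, 0.09 for cortex and hippocampus and 0.03 for thalamus and hippocampus. No 2 libraries of a group were near-identical (chi-square per degree of freedom at least 15.1). The procedures were tested on simulated data.

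The members, lists and alternatives were chosen with earlier results of these data known. The rule for naming genes was the 3 members, the changed genes of fixed lists of the opioid, tachykinin, peptide processing and peptide degradation systems and of transcription factors, the 3 genes most like each member, and marker lists by counts. The table of names used here matched 0 identifiers, so the lists were not analysed here, the members' names come from the rule that chose them, and only 2 other identifiers are given. The study left out 2 hippocampal libraries that aligned poorly, both of sham-operated rats by its sample numbers, without giving the rats. All 10 hippocampal libraries were used here, so the hippocampal sham values include those 2.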

Additional observations from a re-analysis of the deposited data

Results flagged for a closer look

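Pdyn in the thalamus of sham-operated rat 1 was apart from its group. It had 32.7 CPM, where sham rats 2 to 5 had 2.16 to 3.22 CPM, and on the log2 scale its gap to the next library was 0.856 of the range of the group, above the 95% critical value of 0.71 for 5 libraries. It was the only such library among 18 groups of 5 that were examined, and chance gives about 1 in 20 groups. In the same library, Penk was the highest (37.95 CPM) and Tac1 the lowest (10.3 CPM) of the thalamic sham libraries. In the hippocampus the same rat had the lowest Pdyn of all libraries (29.5 CPM) and the highest Tac1 (1.89 CPM).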

How the results depend on the processing

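The cortical falls of Penk and Pdyn kept their direction in every alternative and passed the threshold with DESeq2, RLE scaling, no filter, limma and each rat left out. The exact permutation p of both, 0.00794 unadjusted, is the smallest that 5 against 5 allow and restates that the groups did not overlap. They did not pass with 1 fit for all areas (-0.52 and -0.52) or with total counts as scaling (-0.26 and -0.26), with which cortical Tac1 passed at 0.53, and hippocampal Pdyn and Tac1 turned to 0.068 and 0.20. Hippocampal Tac1 was 0.070 in flow cell FC120.

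Without single rats, the log2 fold change lay between 0.36 and 0.64 for Penk, -1.43 and 0.53 for Pdyn and 0.27 and 0.60 for Tac1 in the thalamus, and between -0.85 and -0.56, -0.63 and -0.12, and -0.31 and 0.26 in the hippocampus. Leaving out rat 1 gave the high thalamic extremes of Penk and Pdyn (DESeq2 without it gave 0.63 and 0.53) and the high extreme of hippocampal Tac1. The differences between areas without single rats lay, for cortex and thalamus, between -1.12 and -0.79 (Penk), -0.98 and 0.97 (Pdyn) and -0.37 and 0.086 (Tac1). They lay, for cortex and hippocampus, between -0.025 and 0.35, -0.47 and 0.13, and 0.07 and 0.63. For thalamus and hippocampus they lay between 0.91 and 1.39, -1.34 and 1.04, and -0.019 and 0.80. Penk passed there without rat 1 (1.39), without rat 6 (1.04) and with limma (1.13), fits in which 1.04%, 7.76% and 4.54% of all genes passed, against 0.322% with all rats in edgeR.

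With the rat as a block, the Penk differences were -0.94, 0.22 and 1.16 for the 3 pairs of areas in this order, and the Pdyn differences were 0.15, 0.033 and -0.11, against 0.68, -0.21 and -0.89 without the block. With all libraries the block changed no call. Without the hippocampal libraries of rats 3 and 8, the differences for cortex and hippocampus were 0.085 (Pdyn) and 0.40 (Tac1), and for thalamus and hippocampus -0.60 (Pdyn) and 0.51 (Tac1), and the sham thalamus differed from the hippocampus by 0.86 (Penk), -3.71 (Pdyn) and 3.58 (Tac1). Without the thalamic library of rat 1, added after the data were seen, the differences for cortex and thalamus were -1.02 (Pdyn) and 0.030 (Tac1), and for thalamus and hippocampus 1.29 (Penk) and 0.81 (Pdyn). With the block as well, they were -1.16 (Pdyn) and 0.13 (Tac1) for the first pair, and 0.93 (Pdyn) for the second. The cause of these changes was not tested. Orders of the sham levels did not change.

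The share of thalamic genes past the threshold, 5.62% with all rats, was 0% in 4 of 10 fits without 1 rat, 14.5% without rat 6, 16.2% with limma and 19.2% with 1 fit for all areas, so the thalamic background is itself uncertain. Alternatives on the fixed lists were not run. Hippocampal Tac1 rests on 9 to 59 counts a library; the part of depth in its spread was not tested.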
